A study of Mus musculus with 179 samples.

Results

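The effect of rearing history among socially defeated male mice was read from 12 RNA-seq libraries of the ventral tegmental area (VTA), the midbrain region where the dopamine neurons of the reward system lie. These were the 6 ELS defeat and the 6 standard defeat libraries of male VTA, chosen by their column names in the deposited table, out of 179 samples in the series. ELS defeat mice had early life stress (ELS), a disturbance of the nest in pup life, and then chronic social defeat as adults, a series of encounters with an aggressive male. Standard defeat mice had standard rearing and the same defeat. The 4 ELS control and 4 standard control libraries of male VTA, from mice that were not defeated, were set beside them. All mice were adult C57BL/6 males, the labels used here do not give the ELS window of the VTA cohort, and each library pooled punches of 3 mice taken 24 h after behavioural testing. The male tissue came from 1 cohort, per the labels. Replicates are therefore separate pools, and a difference between groups cannot be told apart from a difference between the pools or punches that make them up.

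Social defeat raises circulating corticosterone, the glucocorticoid of rodents. The hormone binds the glucocorticoid receptor, which enters the nucleus and binds DNA at palindromic response elements, and genes such as Sgk1, Tsc22d3, Fkbp5 and Per1 are induced within hours in many tissues. In the VTA, dopamine neurons lie among GABA neurons, glutamate neurons and the myelinated tracts of the ventral midbrain, so a punch holds all of these in a proportion set partly by where it was taken.

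Whole reads recovered from the deposited values put the depth at 29.9 to 35.7 M reads in ELS defeat libraries and at 30.7 to 36.7 M in standard defeat libraries (exact permutation p = 0.582, two-sided). Markers of midbrain dopamine neurons were high in every library. Th, the rate-limiting enzyme of dopamine synthesis, lay between 143 and 282 RPKM in ELS defeat libraries and between 155 and 349 RPKM in standard defeat libraries, and Slc6a3, the dopamine transporter, was at least at 177 RPKM in all 12. Among these 12, 3 libraries stood apart from their groups. ELS defeat replicates 1 and 5 lay at 22.3 and 21.1 on the first principal component, which held 28.4% of the variance, against -12.5 to 5.71 for the other 4 ELS defeat libraries. Standard defeat replicate 6 lay at -21.5 on the second component. Of the undefeated libraries, ELS control replicate 2 lay at 18.6 on the second component and standard control replicate 1 at -16.5. Lists and genes whose values rest on the 3 defeat libraries are also given without them.

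No gene passed an adjusted p of 0.05 between ELS defeat and standard defeat. Of 14586 genes tested with limma on log2(RPKM + 1), 0 were called after Benjamini-Hochberg adjustment, a background of 0%, and the lowest adjusted p was 0.838. Every difference named below is therefore an estimate that did not pass the test, given with its standard error (SE), and calls at an unadjusted p under 0.05 are counted against the share of all genes that reach it. At an unadjusted p under 0.05 there were 662 genes higher in ELS defeat (4.54%) and 179 lower (1.23%), or 5.77% of all genes in either direction. The fold changes were small, with a median of 0.01 on the log2 scale, and 55.3% of genes lay above 0 and 44.7% below. The split of the unadjusted calls depended on 2 libraries: 78.7% were on the higher side with all 12, and 48.9% (201 higher and 210 lower) without ELS defeat replicates 1 and 5. It also depended on the scaling, with 64.8% on the higher side after quantile normalization and 63.7% after centring each library on its median. Of the 49 genes named in the text with an unadjusted p under 0.05, 27 kept it without ELS defeat replicates 1 and 5, and 25 without these and standard defeat replicate 6. Many were named for a small p in the same libraries, so a kept p is no independent evidence.

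**Figure D1:**
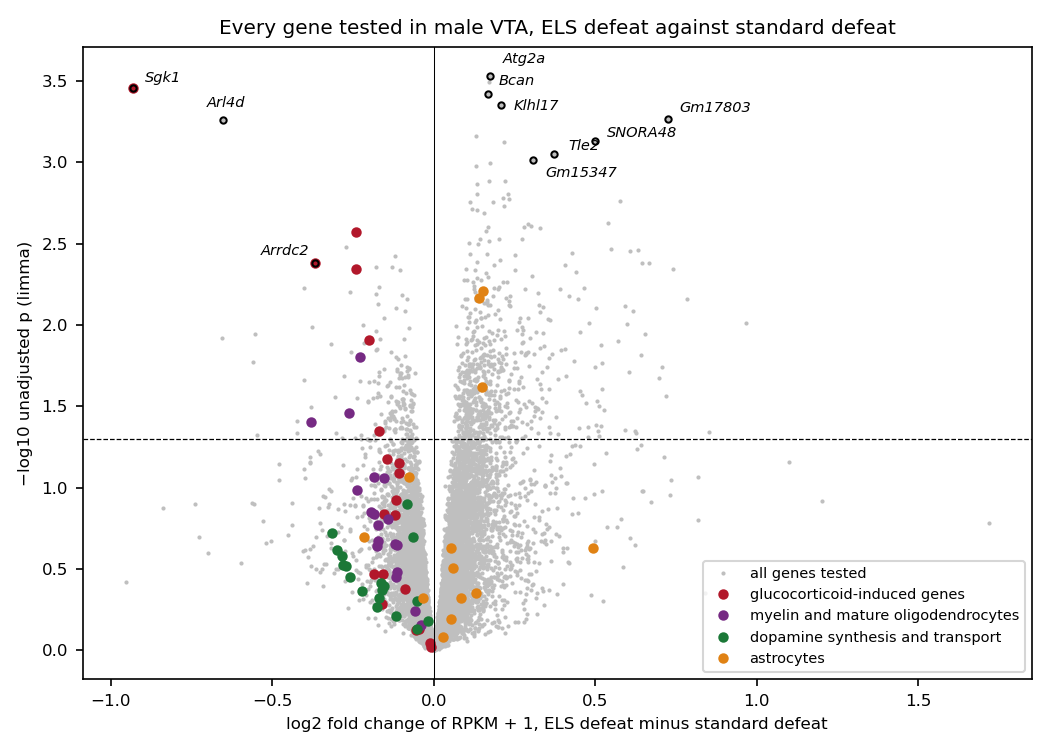
Each point is 1 of the 14586 genes tested, with the log2 fold change of RPKM + 1 (ELS defeat minus standard defeat) on the x axis and −log10 of the unadjusted limma p on the y axis while the dashed line marks an unadjusted p of 0.05 and colours mark members of 4 gene lists. Sgk1 and Arl4d lie at -0.93 and -0.65, and all 20 glucocorticoid-induced genes lie left of 0.

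Genes known to be induced by glucocorticoids were lower in ELS defeat than in standard defeat in the direction of their estimates, with no member past the adjusted threshold. Of 22 genes on this list, 20 passed the filter of a mean RPKM of 0.5, with Lcn2 and Map3k6 under it. All 20 had a log2 fold change below 0, where 44.7% of all genes did, and 6 had an unadjusted p under 0.05 and were lower, where 1.23% of all genes did. The median over the 20 was -0.15 on the log2 scale, against 0.01 over all genes. These counts describe a list chosen with earlier results of these data known, and they are no independent evidence of a direction.

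Sgk1 encodes a serine/threonine kinase that regulates ion channels and transporters and is among the standard glucocorticoid targets of the brain. It ran from 6.85 to 13.7 RPKM in the 6 ELS defeat libraries with a median of 10.1, and from 14.4 to 33.5 RPKM in the 6 standard defeat libraries with a median of 18.7. The groups did not overlap, which held for 5 genes lower in ELS defeat (0.0343% of those tested) and for 20 genes higher (0.137%). The mean was 10.1 ± 2.26 RPKM in ELS defeat and 20.7 ± 6.82 RPKM in standard defeat (SD, n = 6 each), a log2 fold change of -0.93 (SE 0.21, adjusted p = 0.838 by limma). Standard defeat replicate 2 was the highest library, and without it the log2 fold change was -0.79. Across all 28 alternative settings it ran from -1.02 to -0.78 and its unadjusted p stayed under 0.05 in each.

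The promoter of Sgk1 is shown because it is the only one of the 18 listed genes with a promoter in the RefSeq table that held the full palindromic response element. The sequences are the 250 bases before a RefSeq transcription start in GRCm38.p6, for Sgk1 at chr10:21993640-21993889 and for Arl4d, the other gene with a large non-overlapping difference, at chr11:101665291-101665540, both on the plus strand. Capitals mark a match to the full element, which is the core AGAACA, 3 free bases and its reverse complement TGTTCT, so that it reads the same on both strands.
Sgk1: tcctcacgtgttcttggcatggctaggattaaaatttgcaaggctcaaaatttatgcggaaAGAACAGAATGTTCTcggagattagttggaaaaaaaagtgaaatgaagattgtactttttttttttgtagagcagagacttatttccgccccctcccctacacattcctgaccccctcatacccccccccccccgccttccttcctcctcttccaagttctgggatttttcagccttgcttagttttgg
Arl4d: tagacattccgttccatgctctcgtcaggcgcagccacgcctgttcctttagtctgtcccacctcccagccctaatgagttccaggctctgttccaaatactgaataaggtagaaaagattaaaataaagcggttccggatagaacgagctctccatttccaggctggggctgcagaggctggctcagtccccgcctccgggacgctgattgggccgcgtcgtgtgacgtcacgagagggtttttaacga
The match in Sgk1 lies 189 to 175 bases before the start, at chr10:21993701-21993715, in 1 of the 6 Sgk1 starts of the table. The same letters occur in 3 of 32851 promoters (0.00913%). A looser form, GNACA, 3 free bases and TGTNC with N for any base, also reads the same on both strands and covers every full match. It was found in 119 of 27025 genes (0.44%) and in 3 of the 18 listed genes (16.7%), namely Mt1, Sgk1 and Txnip. The Arl4d window held neither form. A match describes these letters only and is no measure of receptor binding.

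Arl4d encodes a small ARF-like GTPase that acts at the plasma membrane and in actin remodelling. It ran from 3.74 to 6.83 RPKM in ELS defeat with a median of 5.32, and from 6.93 to 12.9 RPKM in standard defeat with a median of 8.64. The highest ELS defeat library lay just under the lowest standard defeat library. The log2 fold change was -0.65 (SE 0.16, adjusted p = 0.838 by limma), and it ran from -0.76 to -0.51 over the 28 alternatives. Arl4d is not on the glucocorticoid list, and its order over libraries shared with Sgk1 the lowest library, ELS defeat replicate 5, and the highest standard defeat library, replicate 2.

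Arrdc2, an alpha-arrestin family gene, was at 6.45 to 8.90 RPKM in ELS defeat with a median of 7.32, and at 8.77 to 14.7 RPKM in standard defeat with a median of 9.23. Only ELS defeat replicate 3 lay above the lowest standard defeat library, and standard defeat replicate 2 stood far above the rest. The log2 fold change was -0.37 (SE 0.11), or -0.26 without standard defeat replicate 2. Its relative Arrdc3, which is not on the list, was at 11.7 to 16.0 RPKM in ELS defeat (median 14.5) and at 14.4 to 18.3 RPKM in standard defeat (median 17.7), a log2 fold change of -0.27 (SE 0.08).

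Pdk4, the kinase that switches off pyruvate dehydrogenase in fasting and stress, was at 2.13 to 2.83 RPKM in ELS defeat (median 2.52) and at 2.77 to 3.34 RPKM in standard defeat (median 3.16). Nfkbia, which encodes the NF-kappaB inhibitor IkappaB-alpha, was at 7.73 to 9.68 RPKM in ELS defeat (median 9.08) and at 9.45 to 12.6 RPKM in standard defeat (median 10.7). In both genes the groups overlapped only at the edge, where the highest ELS defeat libraries lay above the lowest standard defeat library. The log2 fold changes were -0.24 for each (SE 0.07 for both). Ddit4, a stress-induced inhibitor of mTORC1 signalling, was at 20.1 to 25.4 RPKM in ELS defeat (median 21.4) and at 21.2 to 27.8 RPKM in standard defeat (median 26.3), with a log2 fold change of -0.20 (SE 0.07). Tsc22d3, which encodes the glucocorticoid-induced leucine zipper GILZ, was at 22.7 to 29.9 RPKM in ELS defeat (median 26.3) and at 27.1 to 32.1 RPKM in standard defeat (median 29.9), with a log2 fold change of -0.17 (SE 0.08).

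Sgk1, Arrdc2 and Pdk4 kept an unadjusted limma p under 0.05 in all 28 alternatives, Nfkbia in 27, Ddit4 in 26 and Tsc22d3 in 13. Without ELS defeat replicates 1 and 5, Ddit4 was at -0.17 and Tsc22d3 at -0.08, both with an unadjusted p above 0.05. Fkbp5 was named after its values were seen, as the most widely used marker of receptor activity. It encodes a co-chaperone that lowers the receptor's affinity for the hormone. It was at 3.79 to 5.46 RPKM in ELS defeat (median 4.41) and at 3.68 to 7.82 RPKM in standard defeat (median 3.91), with a log2 fold change of -0.05 (SE 0.14). The medians and the mean log2 values therefore pointed opposite ways, and without standard defeat replicate 6, the highest library, the log2 fold change was 0.09. Per1, the clock gene with a classical response element, had a log2 fold change of -0.01. The metallothioneins Mt1 and Mt2, at medians of 202 and 144 RPKM in ELS defeat and 210 and 161 RPKM in standard defeat, differed by -0.11 and -0.14.

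**Figure D2:**
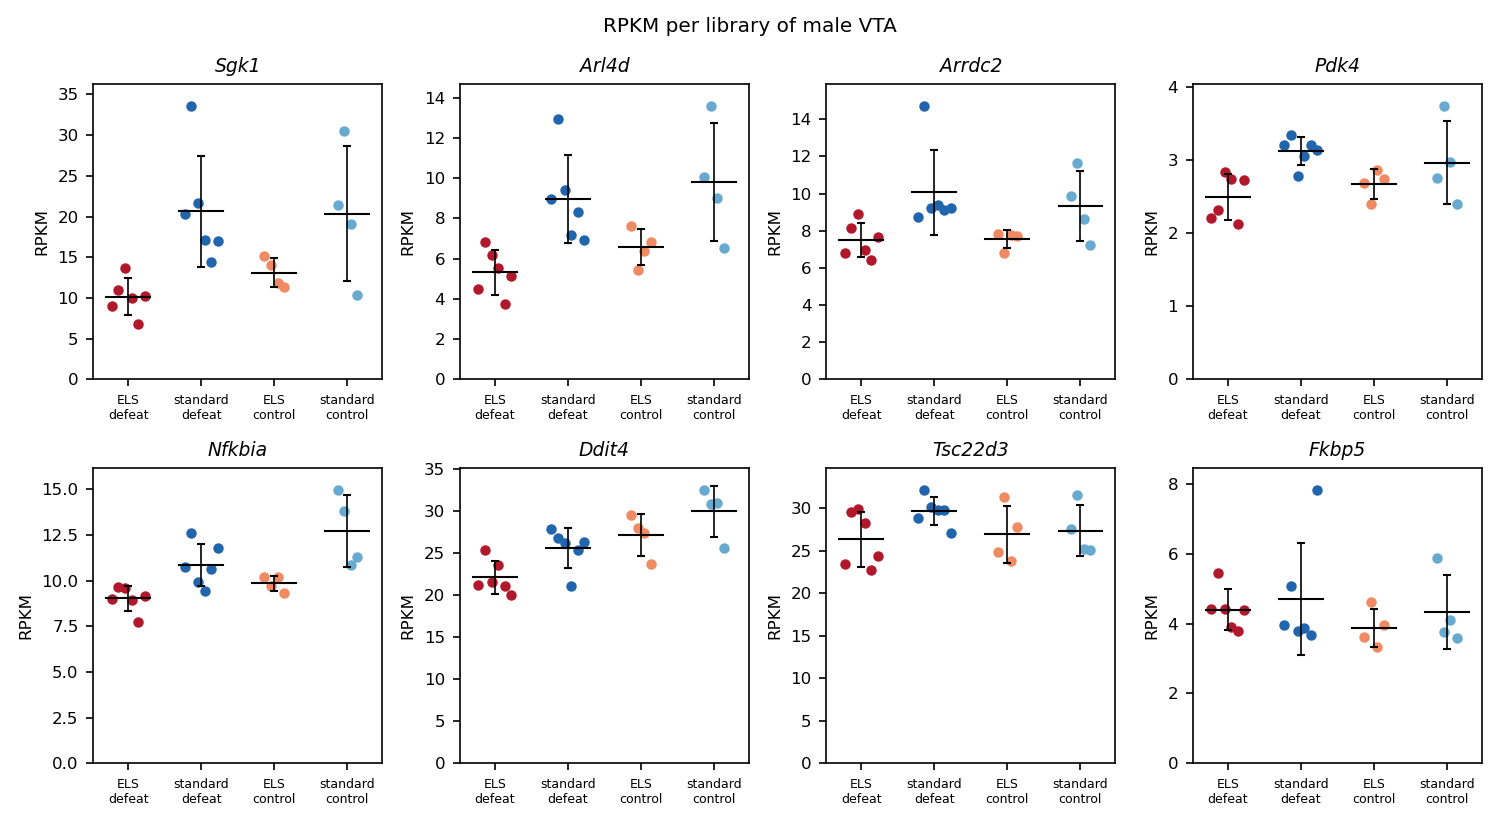
RPKM of 8 genes in each male VTA library, with the 4 groups on the x axis; points are libraries in replicate order, and the line and bars give the mean and SD. The ELS defeat points of Sgk1 and Arl4d all lie below the standard defeat points, Arrdc2 and Pdk4 overlap at the edge, and Fkbp5 overlaps throughout.

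The list as a whole was less even than its count of signs. The mean log2 value of the 20 genes was below the standard defeat median in 4 of 6 ELS defeat libraries. Without standard defeat replicate 6, the library highest on this mean, 15 of 20 genes were below 0 and the median was -0.09, and without ELS defeat 1 and 5 as well as standard defeat 6 it was 15 of 20, 3 with an unadjusted p under 0.05 and a median of -0.07. Over all 28 alternatives the median ran from -0.17 to -0.07. The same list was also lower with ELS in mice that had not been defeated, with 18 of 20 genes below 0 and a median of -0.11, where 62.7% of all genes were below 0. There Sgk1 was at 11.4 to 15.1 RPKM in ELS control and at 10.3 to 30.5 RPKM in standard control, a log2 fold change of -0.51, and Arl4d differed by -0.48. The test of the difference between the rearing effects of defeated and undefeated mice gave -0.42 (SE 0.34, adjusted p = 0.826 by limma) for Sgk1 and -0.17 (SE 0.25, adjusted p = 0.877) for Arl4d, and no gene of the list had an unadjusted p under 0.05 in it.

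RNA of the corticosteroid receptors and of CRF system genes in these VTA punches did not share this pattern. These libraries hold no measure of the hormone itself. Of 10 genes for corticosteroid receptors, their chaperones and the CRF system, 9 were tested, 6 lay above 0 and 3 below, and 0 had an unadjusted p under 0.05, with a median of 0.01. Nr3c1, the glucocorticoid receptor, was at medians of 9.80 RPKM in ELS defeat and 9.65 RPKM in standard defeat, a log2 fold change of 0.03 (SE 0.06). Nr3c2, the mineralocorticoid receptor of higher affinity, was at 4.64 and 4.77 RPKM, a log2 fold change of -0.15 (SE 0.09). Immediate early genes, which report recent neuronal activity, were split with 11 of 22 on each side of 0, a median of 0.01 and 0 with an unadjusted p under 0.05. Fos was at medians of 2.22 RPKM in ELS defeat and 2.40 RPKM in standard defeat, and Npas4, which responds to calcium entry, had the lowest p of the list at a log2 fold change of 0.24 (SE 0.12).

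Myelin genes were lower in ELS defeat in their estimates, and this rested on ELS defeat replicates 1 and 5. All 18 genes of myelin and mature oligodendrocytes had a log2 fold change below 0, where 44.7% of all genes did, with a median of -0.17, and 3 were lower at an unadjusted p under 0.05, where 1.23% of all genes were. Mal, a myelin lipid-raft protein, was at 144 to 208 RPKM in ELS defeat (median 186) and at 186 to 238 RPKM in standard defeat (median 212), a log2 fold change of -0.23 (SE 0.09). Mobp, a component of compact myelin, and Apod, a lipid carrier of oligodendrocytes, differed by -0.26 and -0.38 (SE 0.12 and 0.17). The summed RPKM of the list was 2671 in ELS defeat replicate 1 and 3086 in replicate 5, 3442 to 4351 in the other 4, and 3618 to 4652 in standard defeat. Without replicates 1 and 5, 10 of 18 genes were below 0 and 0 had an unadjusted p under 0.05. In bulk tissue, fewer cells of a type and less RNA per cell cannot be told apart.

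Dopamine neuron genes were low in the same 2 ELS defeat libraries. All 18 genes of dopamine synthesis, storage and transport were below 0 in defeated mice, 0 had an unadjusted p under 0.05, and the median was -0.17. All 18 were above 0 in undefeated mice, with a median of 0.19. There the summed RPKM of the list ran from 1029 to 2187 in ELS control and from 1098 to 1922 in standard control. In the test of the difference between the rearing effects, 0 of the 18 had an unadjusted p under 0.05. Th was at a median of 221 RPKM in ELS defeat and 266 RPKM in standard defeat, a log2 fold change of -0.26 (SE 0.27, adjusted p = 0.906 by limma). Slc18a2, the vesicular monoamine transporter, and Ddc, which makes dopamine from L-DOPA, differed by -0.29 and -0.30 (SE 0.25 and 0.25). Summed RPKM of the list was 1200 and 1180 in ELS defeat replicates 1 and 5, 1624 to 1850 in the other ELS defeat libraries, and 1310 to 2332 in standard defeat, and without replicates 1 and 5 11 of 18 genes were below 0. Otx2, a homeobox transcription factor of dopamine neuron development, was at 1.48 to 2.45 RPKM in ELS defeat (median 2.12) and at 1.84 to 2.70 RPKM in standard defeat (median 2.09). Its log2 fold change was -0.07 (SE 0.08, adjusted p = 0.913 by limma), and the groups overlapped over most of their range.

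**Figure D3:**
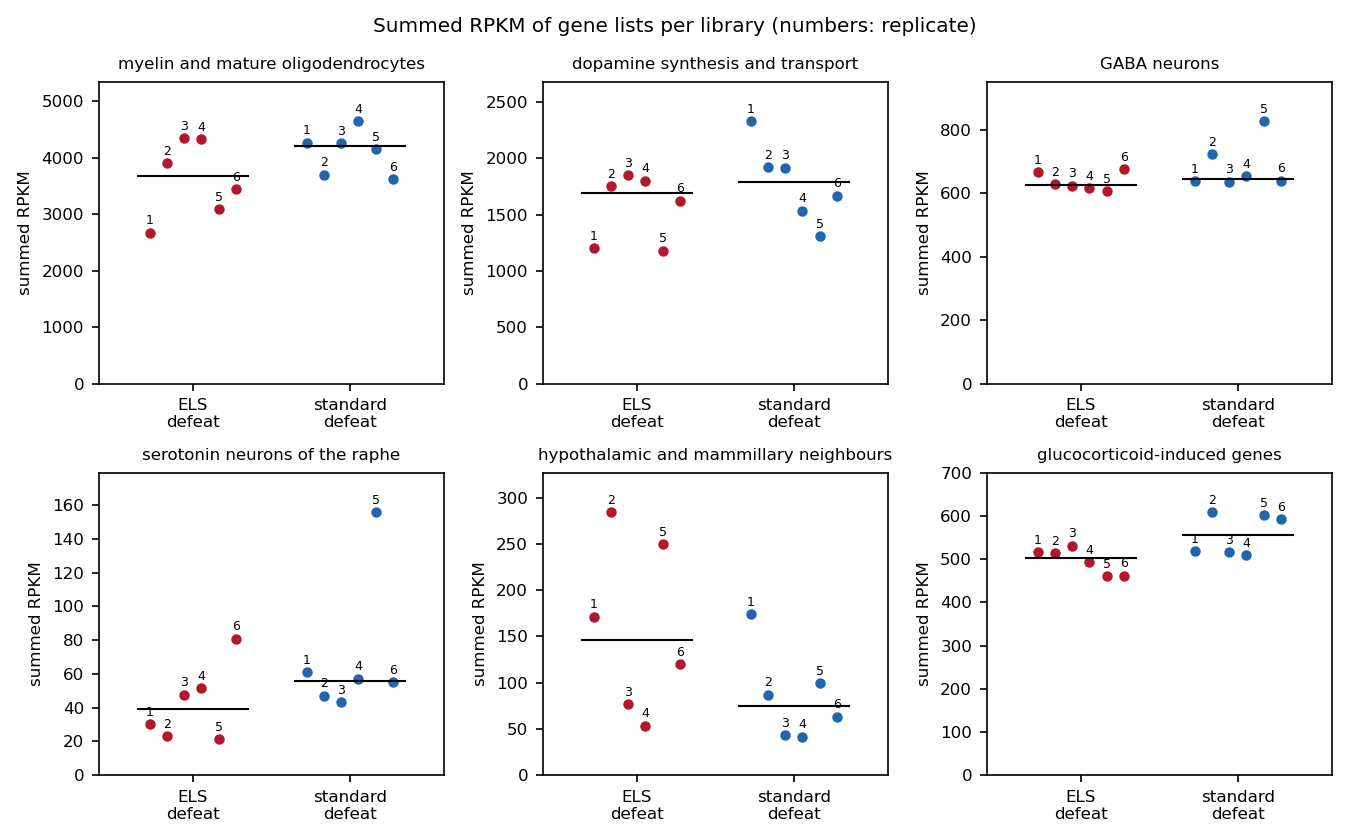
Summed RPKM of 6 gene lists in each ELS defeat and standard defeat library, with replicate numbers over the points and a line at the group median. ELS defeat replicates 1 and 5 are lowest in myelin and dopamine genes, and standard defeat replicate 5 is highest in raphe genes at 155.7.

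Markers of neighbouring regions varied between libraries by more than between groups. Genes of the hypothalamus and mammillary bodies, which adjoin the VTA, were above 0 in 12 of 14 with a median of 0.51 and 0 with an unadjusted p under 0.05, and below 0 in 12 of 14 in undefeated mice with a median of -0.53. Their summed RPKM ran from 53.4 to 284 in ELS defeat and from 41.4 to 174 in standard defeat, and without ELS defeat replicates 1 and 5 the median was 0.01. Serotonin neuron genes of the raphe, which lies behind the VTA, were below 0 in 7 of 7 with a median of -0.32 and 0 with an unadjusted p under 0.05. Their sums were 21.4 to 80.8 RPKM in ELS defeat and 43.1 to 155.7 RPKM in standard defeat. Tph2, the serotonin-synthesizing enzyme, differed by -0.84 (SE 0.53). The part of these tissue differences in the results on single genes was not tested. No fit took hypothalamic or raphe genes as a covariate. Sgk1 and Arl4d differed by -0.78 and -0.51 without ELS defeat replicates 1 and 5. With 4 myelin genes as a covariate they differed by -0.81 and -0.51, and with 4 dopamine genes by -0.82 and -0.55. The unadjusted p was under 0.05 in each of these. Other genes named in the text had an unadjusted p above 0.05 with the myelin covariate. Among them were Tsc22d3 at -0.09, Slc17a6 at 0.24, Tal1 at -0.08, Sox9 at 0.09 and Setd1a at 0.08, while Arrdc2 and Pdk4 stayed under 0.05.

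Among transmitter markers of the local neurons, the glutamate list was split and the GABA list was mostly below 0. Of 7 glutamate neuron genes 3 were above 0 and 4 below, with a median of -0.03. Slc17a6 was the 1 member with an unadjusted p under 0.05, where 4.54% of all genes were higher at that p. Slc17a6, the vesicular glutamate transporter VGLUT2 of midbrain glutamate neurons, was at 64.8 to 88.7 RPKM in ELS defeat (median 80.5) and at 51.0 to 74.8 RPKM in standard defeat (median 61.0). Of the 6 standard defeat libraries, 5 lay below every ELS defeat library, and the log2 fold change was 0.36 (SE 0.13), or 0.28 without ELS defeat replicates 1 and 5, where the unadjusted p was above 0.05. GABA neuron genes were below 0 in 11 of 13 with a median of -0.21, where 44.7% of all genes were below 0. Tal1, a transcription factor that specifies midbrain GABA neurons, differed by -0.30 (SE 0.14), and Gad1, the main GABA-synthesizing enzyme, was at medians of 48.9 RPKM in ELS defeat and 58.6 RPKM in standard defeat, a log2 fold change of -0.22 (SE 0.11). At the presynaptic release site, the complexin Cplx2 differed by -0.25 (SE 0.12) and the priming factor Unc13a by 0.15 (SE 0.07). Tal1, Cplx2 and Unc13a had an unadjusted p under 0.05 and Gad1 did not. Without ELS defeat replicates 1 and 5, Tal1 was at -0.14, Cplx2 at -0.15 and Unc13a at 0.09, each with an unadjusted p above 0.05, and the GABA median was -0.11. Without standard defeat replicate 6 as well, Cplx2 was at -0.08.

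Among glia and vessels, 10 of 13 astrocyte genes were above 0, where 55.3% of all genes were, and the median was 0.06. At an unadjusted p under 0.05, 3 were higher, where 4.54% of all genes were, and 1 without ELS defeat replicates 1 and 5. Slc7a10, an astrocytic exchanger of D-serine and small amino acids, was at 21.8 to 24.5 RPKM in ELS defeat (median 23.2) and at 19.5 to 22.9 RPKM in standard defeat (median 20.8), a log2 fold change of 0.15 (SE 0.05). Fgfr3, a growth factor receptor of astrocytes, and Sox9, an astrocyte transcription factor, differed by 0.14 and 0.15 (SE 0.05 and 0.06), while Gfap, the marker of reactive astrocytes, was at medians of 27.6 RPKM in ELS defeat and 14.6 RPKM in standard defeat with a log2 fold change of 0.49 (SE 0.40). Without ELS defeat replicates 1 and 5, Slc7a10 was at 0.14 and kept its unadjusted p under 0.05, while Fgfr3 and Sox9 were both at 0.09 and did not. Bcan, the matrix proteoglycan brevican, was at 79.1 to 94.0 RPKM in ELS defeat (median 85.6) and at 72.5 to 80.0 RPKM in standard defeat (median 76.2), a log2 fold change of 0.17 (SE 0.04). Endothelial genes were below 0 in 11 of 12, where 44.7% of all genes were, but their mean log2 value was below the standard defeat median in only 3 of 6 ELS defeat libraries. Ly6c1, a surface protein of brain endothelium, was at 31.1 to 39.6 RPKM in ELS defeat and at 36.7 to 41.4 RPKM in standard defeat. Its log2 fold change was -0.18 (SE 0.06). The haemoglobin chains and Alas2, which mark blood left in the tissue, were below 0 in 5 of 5 with a median of -0.38 and 0 with an unadjusted p under 0.05. That median was -0.15 without standard defeat replicate 6, -0.05 without ELS defeat replicates 1 and 5, and 0.13 without all 3. Their near-identical copies share reads, so the values of the single chains are uncertain.

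**Figure D4:**
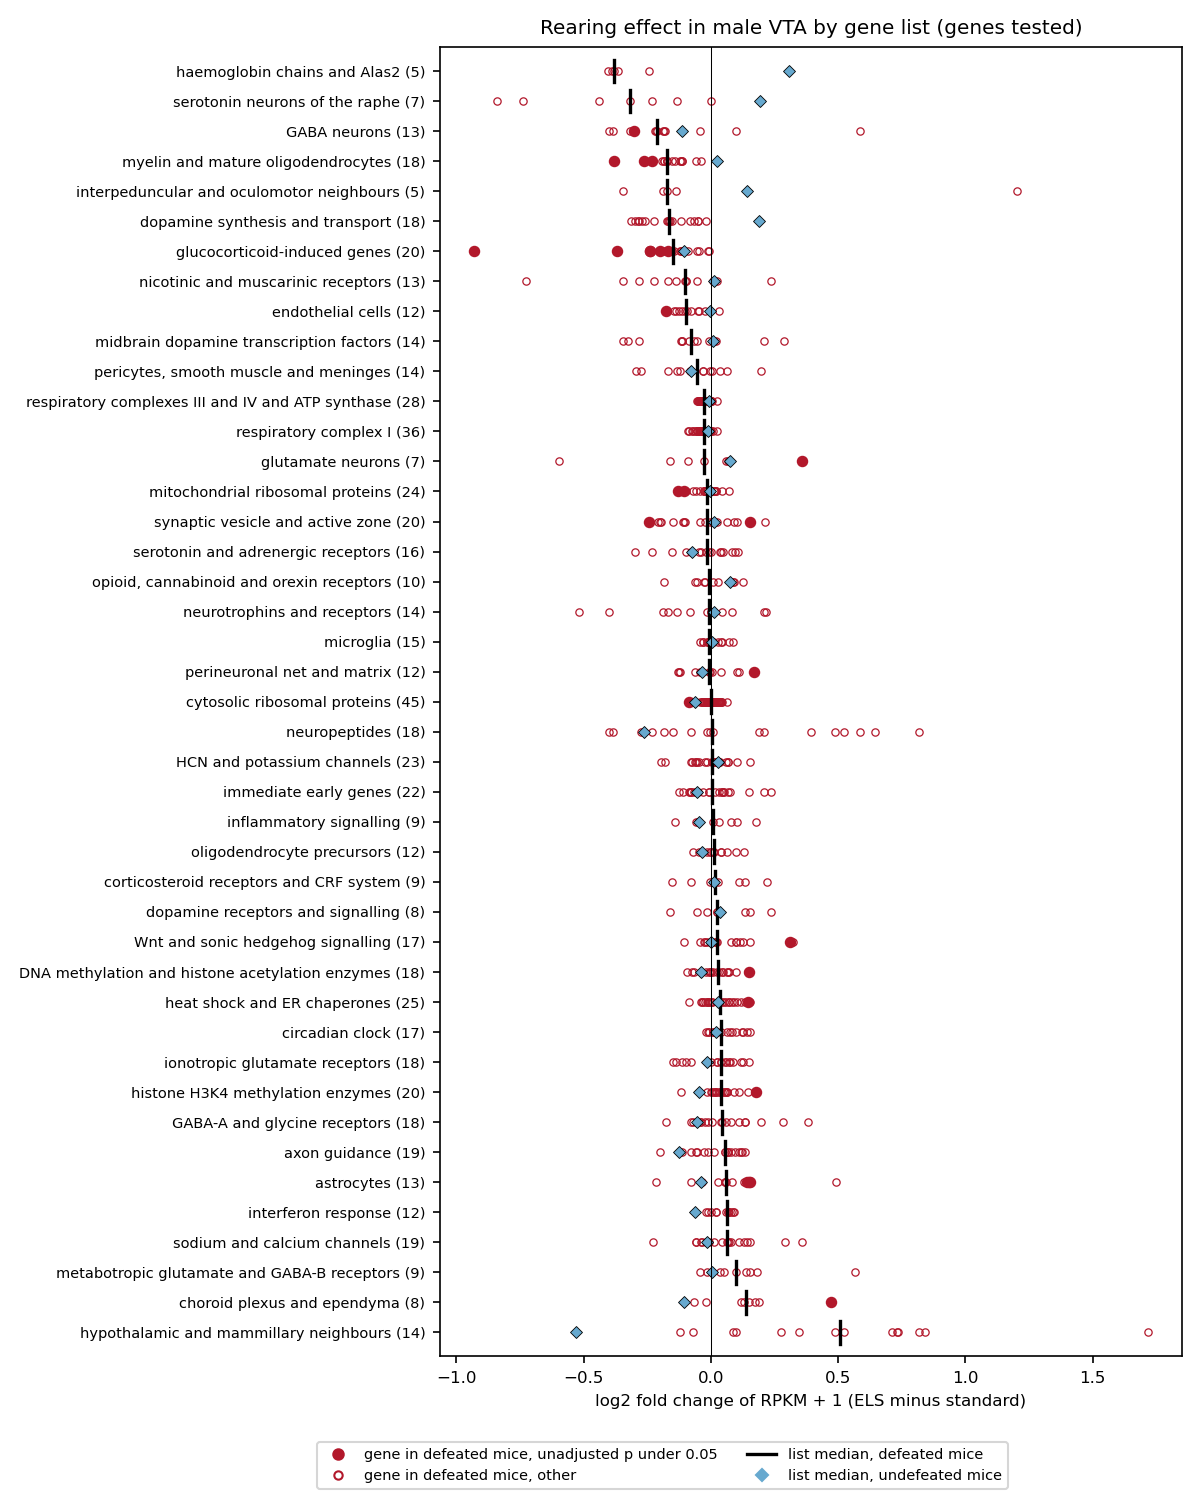
Log2 fold change of RPKM + 1 (ELS minus standard) of each tested member of 43 gene lists, sorted by the list median in defeated mice; filled circles have an unadjusted limma p under 0.05, black ticks are list medians in defeated mice and diamonds are list medians in undefeated mice. Filled circles are most frequent in the glucocorticoid-induced list, with 6 of 20, and the hypothalamic list has the highest median at 0.51 with a diamond at -0.53.

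Chromatin enzymes were mostly on the higher side by small amounts. Of 20 enzymes and subunits that write or erase methylation of histone H3 at lysine 4, 18 were above 0 with a median of 0.04. Of all genes, 55.3% were above 0. The libraries were evenly split, with the mean log2 value of this list above the standard defeat median in 3 ELS defeat libraries and below it in 3. Setd1a, a catalytic subunit of a SET1 complex, was at 2.56 to 3.95 RPKM in ELS defeat (median 3.30) and at 2.56 to 3.01 RPKM in standard defeat (median 2.74), a log2 fold change of 0.18 (SE 0.07). It was the 1 member with an unadjusted p under 0.05, where 4.54% of all genes were higher at that p, and without ELS defeat replicates 1 and 5 its log2 fold change was 0.08 with an unadjusted p above 0.05. In undefeated mice 5 of these 20 genes were above 0. The deacetylase Hdac6 differed by 0.15 (SE 0.07) at an unadjusted p under 0.05, and by 0.05 without ELS defeat replicates 1 and 5, with an unadjusted p above 0.05. In all, 12 of 18 genes of DNA methylation and histone acetylation were above 0. Respiratory chain genes lay on the other side of 0 by less. Below 0 were 34 of 36 complex I genes and 24 of 28 genes of complexes III and IV and ATP synthase. Each list had a median of -0.03 and 0 genes with an unadjusted p under 0.05. In each, the mean log2 value was below the standard defeat median in 3 ELS defeat libraries and above it in 3.

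The genes of smallest p on the higher side were of several kinds. Atg2a, a lipid transfer protein of autophagosome growth, was at 7.57 to 8.79 RPKM in ELS defeat (median 7.71) and at 6.58 to 7.62 RPKM in standard defeat (median 6.86), and its p was the lowest of all genes, at a log2 fold change of 0.17 (SE 0.04). Ints1, a subunit of the Integrator complex that cleaves nascent RNA, differed by 0.17 (SE 0.04), and Klhl17, the actin-binding protein actinfilin of synapses, by 0.21 (SE 0.05). Klhl17 was at least at 15.3 RPKM in ELS defeat (median 16.8) and at most at 14.9 RPKM in standard defeat (median 14.5), so that its groups did not overlap. Tle2, a transcriptional corepressor of the Groucho family, differed by 0.37 (SE 0.09), Edc4, a scaffold of mRNA decapping, by 0.22 (SE 0.06), and Vps33b, a trafficking protein of late endosomes, by 0.13 (SE 0.03). Creld1 and Stra13 were also named by the rule, at 0.13 and 0.17. Without ELS defeat replicates 1 and 5 these 8 genes kept an unadjusted p under 0.05, with Tle2 at 0.23 and Edc4 at 0.13. They were named for their small p in the same libraries, so this is no independent evidence.

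The other 5 features named on the higher side were small nucleolar RNAs or genes known by number only. The small nucleolar RNAs SNORA48, SNORD113 and Gm17803 differed by 0.50, 0.59 and 0.73, but they are short, belong to repeated families and had as few as 6, 10 and 2 recovered reads in a library, in RNA selected for poly-A tails. The SNORD113 value is that of 1 of 8 tested entries with this symbol, named because its groups did not overlap. Gm16314, listed as protein-coding, was at 1.54 to 1.93 RPKM in ELS defeat and at 1.02 to 1.42 RPKM in standard defeat, a log2 fold change of 0.23 (SE 0.10), or 0.20 without ELS defeat replicates 1 and 5, with an unadjusted p above 0.05. Gm15347, an antisense gene, was at 1.97 to 2.49 RPKM in ELS defeat and at 1.35 to 1.78 RPKM in standard defeat, a log2 fold change of 0.31 (SE 0.08). The kit did not keep the strand, so its reads and those of its partner cannot be told apart.

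Apart from the genes above, the lower genes of smallest p differed by little. Spop, the substrate adaptor of a cullin ubiquitin ligase, was at 54.2 to 63.1 RPKM in ELS defeat and at 61.0 to 66.9 RPKM in standard defeat, a log2 fold change of -0.12 (SE 0.04). Bzw2, a regulator of translation initiation, Coq10b, a coenzyme Q binding protein of mitochondria, and Mettl7a1 differed by -0.13, -0.10 and -0.17. Casp9, the initiator caspase of the mitochondrial death pathway, Ube2e2, a ubiquitin-conjugating enzyme, and Ptp4a2, a prenylated phosphatase, were the other 3 non-overlapping lower genes, and their log2 fold changes were -0.08, -0.08 and -0.06. Casp9 was at 5.18 to 5.80 RPKM in ELS defeat and at 5.81 to 5.99 RPKM in standard defeat. Gm17567, a short gene known by number only, differed by -0.40 on as few as 11 recovered reads in a library. Of these lower genes, Mettl7a1 and Casp9 had an unadjusted p above 0.05 without ELS defeat replicates 1 and 5, at -0.10 and -0.06.

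GC content moved with the direction of the estimates. Transcripts of the genes higher in ELS defeat at an unadjusted p under 0.05 had a median GC of 56.1% (554 of 662 with a transcript in the annotation), those of the lower genes 47.9% (166 of 179), and those of all genes tested 50.6%. Over 20 bins of genes by GC, the median log2 fold change was -0.0115 in the bin with the lowest GC, at 38.9%, and 0.0443 in the bin at 59.3%. In undefeated mice it was -0.0022 in the lowest bin and -0.0345 in the highest, at 62.0%. Per library, the mean deviation of GC-rich minus GC-poor genes ran from -0.0085 to 0.112 in ELS defeat, with replicate 5 highest, and from -0.0786 to 0.0465 in standard defeat, with replicate 1 lowest. The glucocorticoid list had a median GC of 52.7%. With GC and length fitted out, 427 genes were higher and 231 lower at an unadjusted p under 0.05, all 20 glucocorticoid genes stayed below 0, 8 of them at an unadjusted p under 0.05, and Sgk1 differed by -0.94. In this fit Atg2a, Ints1 and Bcan differed by 0.12, 0.11 and 0.12, less than the 0.17 reported for each without it. Tsc22d3, Hdac6, Hspa1a and Unc13a had an unadjusted p above 0.05 in it. The other named genes with an unadjusted p under 0.05 that this fit covered kept it. Whether GC content is a cause of any of these differences was not tested.

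**Figure D5:**
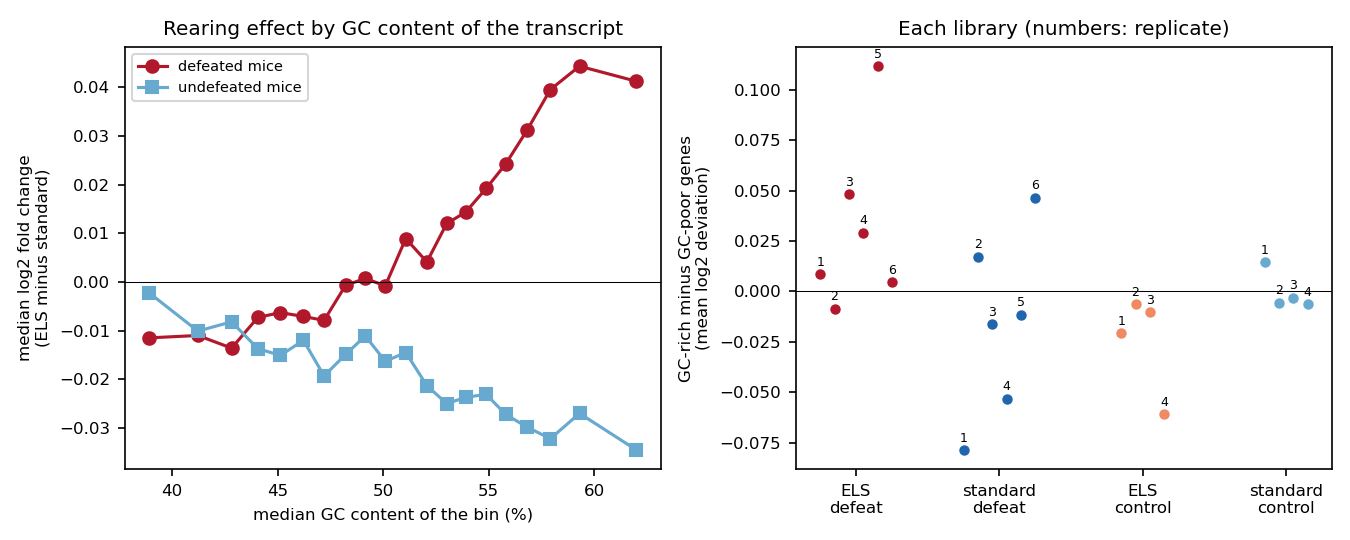
Left, the median log2 fold change of RPKM + 1 (ELS minus standard) in 20 bins of genes by the GC content of their transcript in percent, in defeated and undefeated mice; right, GC-rich minus GC-poor genes as the mean log2 deviation in each library, with replicate numbers. The defeated line runs from -0.0115 at 38.9% GC to 0.0443 at 59.3%, the undefeated line slopes the other way, and ELS defeat replicate 5 is the highest library at 0.112.

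The rearing effect was set beside the same contrast in undefeated mice, which shares no library with it. ELS control against standard control gave 0 genes at an adjusted p under 0.05 (a background of 0%, lowest adjusted p 0.999 by limma), with 86 genes higher (0.59%) and 210 lower (1.44%) at an unadjusted p under 0.05, or 2.03% in either direction. Without ELS control replicate 2, these counts were 100 higher and 137 lower. With all libraries, 37.3% of genes lay above 0 and 62.7% below. The fold changes of the 2 contrasts correlated at Pearson r = -0.282 and Spearman rho = -0.305 across the 14586 genes, which are not independent replicates. The difference of the 2 effects gave 0 genes at an adjusted p under 0.05 (0%, lowest adjusted p 0.513 by limma), and 653 higher (4.48%) and 144 lower (0.987%) at an unadjusted p under 0.05, or 5.46% in either direction. The higher side held 81.9% of these calls with all libraries and 65.7% without ELS control replicate 2. With all libraries, the difference lay above 0 for 60.8% of genes and below for 39.2%. The lowest p was that of Gm15347, with a log2 fold change of 0.31 in defeated and -0.36 in undefeated mice. Among the named protein-coding genes, the difference was 0.30 for Klhl17 and 0.21 for Bcan (adjusted p = 0.817 for both by limma), with log2 fold changes of 0.21 and 0.17 in defeated mice and -0.09 and -0.04 in undefeated mice. Sgk1, Arl4d, Arrdc2, Nfkbia, Pdk4, Ddit4 and Tsc22d3 had negative log2 fold changes in both.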

How the data were processed

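Poly-A RNA was sequenced with an unstranded kit as single 100-base reads, with RNA integrity above 9 and multiplexing counterbalanced, per the labels' protocols. The authors deposited RPKM values for male VTA. The submitters' processing notes name TopHat2, HTSeq, Bowtie2 2.2.0, SAMtools 0.1.19, MACS2 2.1.1 and builds mm9 and mm10, without roles.

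Of 37991 rows, 181 without values were left out. With exon lengths of the mm9 annotation, all values of 98.7% of 37205 genes were whole reads (tolerance 0.01 reads), at 28.5 to 36.7 M per library. The 42 pairs of libraries within groups differed by more than sampling noise (lowest chi-square per gene 3.77), so none was merged.

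The 14586 genes with a mean RPKM of at least 0.5 over 20 libraries were fitted as log2(RPKM + 1) in limma 3.58.1 (R 4.3.3, trend and robust, 4 groups), tested first on simulated data, with Benjamini-Hochberg adjustment. This scale understates changes of low genes. P-values measure the spread between pools. Named genes were the 12 of smallest p on each side and the 5 largest non-overlapping on each side (mean of at least 1 RPKM), list members of small p, and region markers. The members and lists were chosen with earlier results of these data known. Alternatives were other pseudocounts, filters, scalings, library weights, covariates and leaving libraries out, and, added after seeing the data, voom on recovered reads, leaving out libraries that stood apart, and a GC and length adjustment. Promoters are RefSeq GRCm38.p6. A gene that the rule names is not reported here.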

Additional observations from a re-analysis of the deposited data

Results flagged for a closer look

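Within the 6 libraries of a group, 14 of 196 sets of values had a library whose gap to its nearest neighbour took up more of the group's whole range than Dixon's critical value for 6 samples allows. Chance flags about 1 in 20. Of the 14, 8 were standard defeat replicate 6.

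Standard defeat replicate 6 was the highest of its group in the mean log2 value of immediate early genes (0.716 of the range), astrocyte genes (0.770), genes of pericytes, smooth muscle and meninges (0.679), interferon response genes (0.670), inflammatory signalling genes (0.800), opioid, cannabinoid and orexin receptors (0.804), and Wnt and sonic hedgehog genes (0.860). It was the lowest in Arrdc3 (0.679). Its summed RPKM of inflammatory genes was 23.7, the top of a standard defeat range of 14.6 to 23.7, against 15.9 to 18.4 in ELS defeat.

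Standard defeat replicate 2 was the highest of its group in the hypothalamic and mammillary genes (0.731) and in Arrdc2 (0.865), where it was at 14.7 RPKM against 8.77 to 9.41 RPKM in the other 5. Standard defeat replicate 5 was the highest in serotonin neuron genes of the raphe (0.777), and standard defeat replicate 4 the lowest in Ddit4 (0.661). ELS defeat replicate 1 was the highest of its group in choroid plexus and ependyma genes (0.712), and ELS defeat replicate 5 the lowest in Nfkbia (0.650), at 7.73 RPKM against 8.95 to 9.68 RPKM in the other 5.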

How the results depend on the processing

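In all 28 alternatives limma called 0 genes between ELS defeat and standard defeat after adjustment (lowest adjusted p between 0.189 and 1), so the counts here are of unadjusted p under 0.05. With 662 higher and 179 lower as reported, no filter on low values gave 999 and 362 of 27359 genes. There were 304 lower after quantile normalization, 315 after median centring and 274 with library weights, and 289 higher with the myelin covariate. Without ELS defeat replicates 1 and 5, 201 were higher, without these and standard defeat replicate 6, 324, and with GC content and length adjusted, 427. Leaving out 1 library at a time gave 315 (without ELS defeat replicate 5) to 1037 higher and 110 to 283 lower (both highest without ELS defeat replicate 4), and 0 after adjustment each time. ELS defeat replicates 1 and 3 and standard defeat replicates 3 and 6 also moved a count by over 1.5 times, to 424 higher, 1034 higher, 424 higher and 275 lower.

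Of genes whose groups do not overlap, reported as 20 higher and 5 lower, no filter gave 32 higher, quantile normalization 8 lower, median centring 10 lower and the GC adjustment 11 lower. Smaller groups separate more easily: 38 higher and 56 lower without ELS defeat replicates 1 and 5, 150 and 112 without the 3 libraries, and 22 to 79 higher and 8 to 23 lower without 1 library. Of list medians, these 3 moved by more than the replicate spread: microglia to 0.0673 without the 3 libraries, GABA neurons to -0.0761 with the myelin covariate and neurotrophins to -0.1309 with voom. Of the 43 list medians, 33 took the other sign in at least 1 alternative, among them lists that moved by less than that spread, with values of 0.1311 for haemoglobin and 0.1903 for pericytes and meninges without the 3 libraries, and 0.0335 for myelin with the myelin covariate. The cause was not tested.

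These log2 fold changes changed sign, with unadjusted limma p above 0.05 as reported and after. Fkbp5 was at 0.0419 with library weights and 0.1259 without the 3 libraries, and between -0.0992 and 0.0878 without 1 library. Th was at 0.0061 with the dopamine covariate and 0.0019 with the myelin covariate. Slc6a3 was at 0.0976 and 0.0328 with these, 0.0589 without ELS defeat replicates 1 and 5 and 0.0738 without the 3 libraries. Otx2 was at 0.0276 with the myelin covariate and 0.0234 without ELS defeat replicates 1 and 5.

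The replicate block gave 760 higher and 214 lower, and within the 12 defeat libraries 691 and 215 (534 and 167 with no block), and 0 after adjustment. Within the 12, the lowest adjusted p by limma was 0.189 with the block and 0.824 without it. Same-numbered libraries deviated together with correlations of 0.021, -0.266, 0.344, 0.185, 0.071 and 0.191. These values cannot show whether the numbers pair the samples, and the main fit took no block. With 6 pools a group and medians of 0.0441 for the absolute log2 fold change, differences of single genes of this size were not detectable after adjustment.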

Other observations

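Some gene groups not described above lay near 0 in defeated mice. Dopamine receptor and signalling genes were above 0 in 5 of 8 with a median log2 fold change of 0.02, HCN and potassium channel genes in 13 of 23 with a median below 0.01, and synaptic vesicle genes in 9 of 20 with a median of -0.01. Circadian clock genes were above 0 in 14 of 17 (median 0.04), axon guidance genes in 12 of 19 (median 0.06), heat shock and chaperone genes in 16 of 25 (median 0.04) and ionotropic glutamate receptor genes in 13 of 18 (median 0.04), where 55.3% of all genes were above 0. The mean log2 value was above the standard defeat median in 4 ELS defeat libraries for clock genes and in 5 for heat shock and chaperone genes. For axon guidance genes and for ionotropic glutamate receptor genes it was above in 3 and below in 3. In these 7 lists 3 genes had an unadjusted limma p under 0.05, where 5.77% of all genes did in either direction. They were Cplx2 at -0.25, Unc13a at 0.15 and Hspa1a, an inducible HSP70 chaperone, at 0.14 (SE 0.06). Each had an unadjusted p above 0.05 without ELS defeat replicates 1 and 5.

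Gli1, the transcriptional readout of sonic hedgehog signalling, was at 1.68 to 3.16 RPKM in ELS defeat (median 2.24) and at 1.21 to 1.94 RPKM in standard defeat (median 1.73), a log2 fold change of 0.31 (SE 0.12). It was -0.23 in undefeated mice (adjusted p = 0.817 by limma for the difference), and 0.15 in defeated mice without ELS defeat replicates 1 and 5, with an unadjusted p above 0.05. Clic6, a chloride channel protein of choroid plexus, was at 0.804 to 3.99 RPKM in ELS defeat and at 0.548 to 1.27 RPKM in standard defeat, a log2 fold change of 0.47 (SE 0.20), and 0.13 without ELS defeat replicates 1 and 5, with an unadjusted p above 0.05. Of 45 cytosolic ribosomal protein genes 19 were above 0 in defeated mice and 1 in undefeated mice, with medians of -0.0007 and -0.0625. Rpl22 was the 1 member with an unadjusted p under 0.05 in defeated mice, where 1.23% of all genes were lower at that p. Its log2 fold change was -0.08 (SE 0.04). Of 24 mitochondrial ribosomal protein genes 17 were below 0, where 44.7% of all genes were. Mrpl9 and Mrpl18 differed by -0.10 and -0.13 (SE 0.04 and 0.06). Without ELS defeat replicates 1 and 5, Rpl22 was at -0.04, Mrpl9 at -0.08 and Mrpl18 at -0.07, each with an unadjusted p above 0.05.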
